A study of Drosophila melanogaster with 5 samples.

Results

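The chorion protein genes Cp7Fa, Cp7Fb, Cp7Fc, Cp36, Cp38, Cp18, Cp15, Cp19 and Cp16 were followed in RNA from whole adult Drosophila melanogaster ovaries. They were taken by exact gene symbol, and all 9 of the 14094 genes in the table that carry these symbols had enough counts to be tested, among 9241 tested genes in all. Ovaries of 2 genotypes were compared, both dissected 1 to 3 days after eclosion. The 2 knockout libraries came from flies labelled BEAF 32-AB KO, altered in the insulator protein gene BEAF-32. The position of that change within BEAF-32 is not given in the labels. The 3 control libraries came from flies labelled nosGAL4;MKRS/TM6, which carry a germline driver of the GAL4 activator and balancers of chromosome 3. The knockout label names neither the driver nor the balancers, so these differences between the stocks cannot be told apart from that of BEAF-32. Part of the chorion genes lie on chromosome 3, the chromosome that the balancers concern. Nothing in the labels tells if each library had its own set of flies. The p-values therefore reflect variation among these 5 libraries, which may be technical.

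The chorion is the outer layer of the insect eggshell. The somatic follicle cells that surround the oocyte secrete it in the last stages of oogenesis, after the inner vitelline membrane has been laid down. Follicle cells first raise the DNA copy number of the chorion gene clusters by repeated firing of local replication origins, and then transcribe the genes in a short, staged burst. Cp36 and Cp38 encode major chorion proteins made early in that burst, whereas Cp15 and Cp18 are known as late chorion genes.

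In the dm6 coordinates, the 9 genes fall into 2 tight clusters, and all of them lie on the plus strand. The cluster on X holds 5 genes over 12424 bases, in the order Cp7Fa, Cp7Fb, Cp7Fc, Cp36 and Cp38, from 8470888 to 8483311. The cluster on 3L holds 4 genes over 5809 bases, in the order Cp18, Cp15, Cp19 and Cp16, from 8726791 to 8732599. The longest annotated transcripts are short, from 515 bases for Cp15 to 2093 bases for Cp7Fb. Cp7Fa has 4 exons in its longest transcript, and the others have 2.

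The knockout libraries held 38820176 and 47805964 estimated counts, and the control libraries 41105107, 8448850 and 10388643. Levels are in CPM, the estimated counts scaled to the same total in every library, and group means carry the SD over 2 knockout and 3 control libraries. Changes are given as the log2 fold change of knockout over control ± standard error (SE). The adjusted p-values were obtained with the quasi-likelihood test of edgeR, adjusted by Benjamini-Hochberg across every tested gene. A gene is said to have risen or fallen at an adjusted p under 0.05. BEAF-32 itself was at 50.2 and 52.8 CPM in the knockout, against 84.9, 136 and 144 CPM in the control (log2 fold change -1.19 ± 0.26 SE, edgeR adjusted p = 0.0157), and its call was lost by leaving out knockout 1 (edgeR adjusted p = 0.107) or leaving out knockout 2 (edgeR adjusted p = 0.126). BEAF-32 transcript thus remained in the libraries labelled as knockout, and without the position of the change its level does not check the label.

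Chorion transcripts, abundant in the control, were all but missing from the knockout. All 9 genes fell, and the groups did not overlap for any of them. No chorion gene rose. Among all tested genes 18.7% fell and 22.7% rose, 41.5% in all, and 30.5% had both knockout libraries below every control library. The median log2 fold change of the 9 genes was -11.49, beside 0.11 for all tested genes. Together they took 0.000541% and 0.00101% of the counts in the knockout libraries, against 0.995%, 1.90% and 1.85% in the control libraries. In RNA from whole ovaries, fewer late-stage follicle cells and less chorion RNA per cell cannot be told apart.

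On X, the early genes Cp38 and Cp36 were the most abundant chorion transcripts by counts in the control. Cp38 (FBgn0000360, X, 8481837 to 8483311) was at 0.541 and 2.28 CPM in the knockout, against 2858, 4664 and 4927 CPM in the control (log2 fold change -11.49 ± 0.88 SE, edgeR adjusted p = 0.000735). Cp36 (FBgn0000359, X, 8479319 to 8480523) was at 0.386 and 1.42 CPM in the knockout, against 1655, 4058 and 4503 CPM in the control (-11.83 ± 0.98 SE, edgeR adjusted p = 0.000852). For both genes knockout 2 was above knockout 1, and control 1 was below the other controls.

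The other 3 genes of the X cluster had lower counts in the control. Cp7Fc (FBgn0014466, X, 8477117 to 8478320) was at 0.232 and 0.648 CPM in the knockout, against 690, 913 and 884 CPM in the control (-10.81 ± 0.55 SE, edgeR adjusted p = 0.000361). Cp7Fa (FBgn0014464, X, 8470888 to 8473087) was at 0.206 and 0.126 CPM in the knockout, against 185, 354 and 367 CPM in the control (-10.77 ± 0.58 SE, edgeR adjusted p = 0.000413). It was the only member with the lower value in knockout 2. Cp7Fb (FBgn0014465, X, 8473837 to 8476071) had the smallest fold change of the 9 genes and the steadiest values. It was at 1.98 and 2.03 CPM in the knockout, against 409, 464 and 452 CPM in the control (-7.74 ± 0.23 SE, edgeR adjusted p = 0.000240).

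The 3L cluster showed the same pattern of loss. Its first gene, the late gene Cp18 (FBgn0000357, 3L, 8726791 to 8727613), was at 1.73 and 2.01 CPM in the knockout, against 1195, 1802 and 1467 CPM in the control (-9.59 ± 0.33 SE, edgeR adjusted p = 0.000240). The late gene Cp15 (FBgn0000355, 3L, 8728481 to 8729066) was at 0.129 and 0.774 CPM in the knockout, against 1266, 3467 and 3303 CPM in the control (-12.47 ± 1.11 SE, edgeR adjusted p = 0.000989). Control 1 held the lowest control value of both, and the knockout values of Cp15 were further apart than those of Cp18.

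Cp19 and Cp16 close the 3L cluster. Cp19 (FBgn0000358, 3L, 8729865 to 8730604) was at 0.206 and 0.690 CPM in the knockout, against 1429, 2638 and 2140 CPM in the control (-12.11 ± 0.73 SE, edgeR adjusted p = 0.000506). Cp16 (FBgn0000356, 3L, 8731944 to 8732599) was at 0 and 0.0837 CPM in the knockout, against 265, 639 and 451 CPM in the control (-13.11 ± 0.91 SE, edgeR adjusted p = 0.000612). The knockout values of Cp16 stand for 0 and 4 counts, so its fold change rests on few counts and ran from -16.39 without knockout 2 to -12.36 without knockout 1. With a prior count of 2 in the fit it was -11.93, above Cp15 at -12.28, so the order of these genes by fold change is not settled. The median log2 fold change was -10.81 for the X cluster and -12.29 for the 3L cluster, and the difference between the clusters was not tested.

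**Figure D1:**
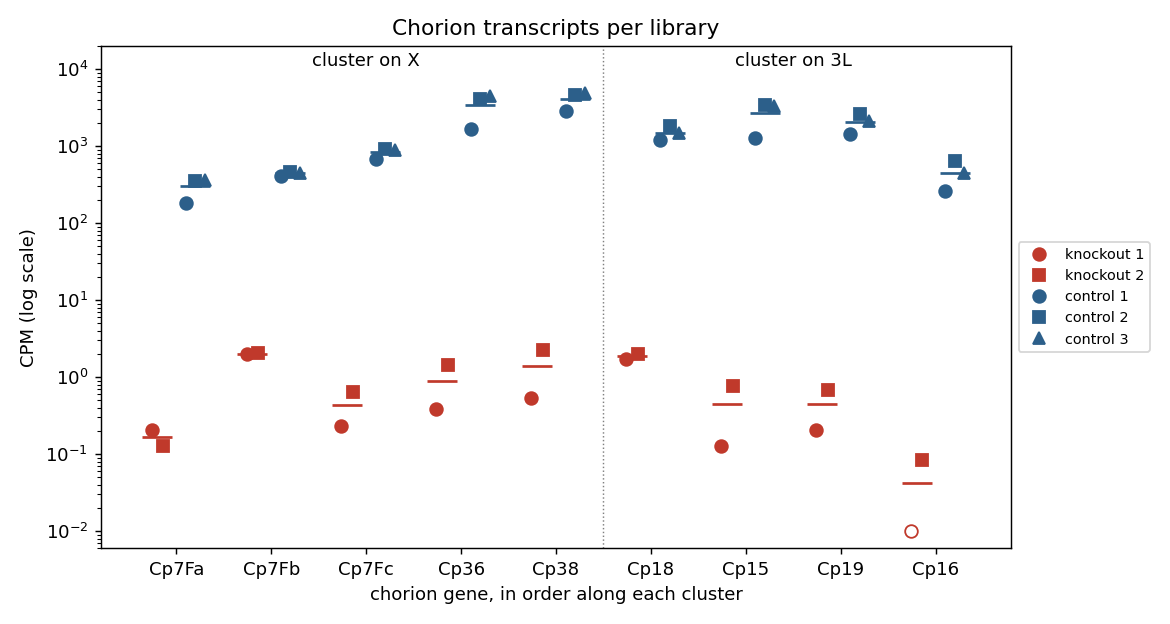
CPM on a log scale for each chorion gene in the knockout libraries (red, left) and the control libraries (blue, right), with bars at the group means and an open symbol at 0.01 for the value of 0. Control libraries lie between 185 and 4927 CPM and knockout libraries at 2.28 CPM or less, with no overlap for any gene.

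Deep and shallow libraries gave the same picture. Controls 2 and 3 were the shallow libraries, and no knockout library was as shallow. Against control 1 alone, the deep control, the knockout means were lower by 204-fold for Cp7Fb to 3189-fold for Cp19 among the genes other than Cp16. Against the mean of all 3 controls they were lower by 220-fold for Cp7Fb to 5935-fold for Cp15. No such fold is given for Cp16, whose knockout mean of 0.0418 CPM is below the level of 3 counts in either knockout library, 0.0773 and 0.0628 CPM. Leaving out any 1 library left all 9 genes called lower, with adjusted p of at most 0.0138 by edgeR.

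The few chorion counts of the knockout libraries were not spread over the genes as in the control. The knockout libraries stood at 0.449% and 0.459% of the control mean for Cp7Fb, and at 0.116% and 0.135% for Cp18. Cp16 stood at 0% and 0.0185%. For the other 6 genes the mean of the knockout libraries lay between 0.0169% for Cp15 and 0.0548% for Cp7Fa. Cp18 and Cp7Fb together made up 68.6% and 40.1% of all chorion counts in the knockout libraries, against 16.1%, 11.9% and 10.4% in the control libraries. These knockout shares rest on 210 and 481 chorion counts in all. Whether all of these counts came from transcripts of the knockout ovaries was not tested.

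The 2 knockout libraries differed from each other as well. In 8 of 9 genes the value was higher in knockout 2, by 6.01 times for Cp15, 4.21 times for Cp38, 3.68 times for Cp36, 3.35 times for Cp19 and 2.80 times for Cp7Fc. For these 5 genes the exact 95% Poisson intervals of the 2 libraries were separate, as for Cp38 with 1.87 to 2.75 CPM in knockout 2 and 0.335 to 0.827 CPM in knockout 1. Such intervals cover counting error only. For Cp7Fa, Cp7Fb, Cp16 and Cp18 the intervals overlapped, and Cp7Fb and Cp18 differed by only 1.02 and 1.16 times.

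**Figure D2:**
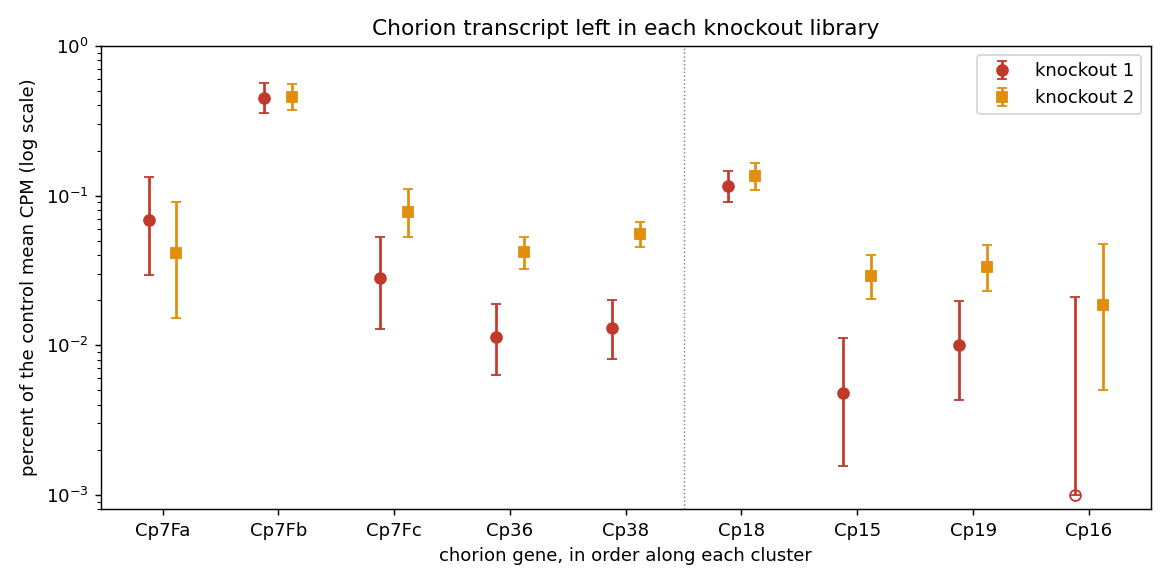
CPM of each knockout library as a percent of the control mean, on a log scale, with exact 95% Poisson intervals and an open symbol at 0.001 for the value of 0. Cp7Fb and Cp18 lie highest and nearly equal in both libraries, whereas Cp7Fc, Cp36, Cp38, Cp15 and Cp19 are higher in knockout 2.

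The control libraries varied by far less than the genotypes differed. Every one of the 9 genes had its lowest control value in control 1. The highest control value was 1.13 times the lowest for Cp7Fb, 1.51 times for Cp18 and 1.72 times for Cp38, but 2.41 times for Cp16, 2.72 times for Cp36 and 2.74 times for Cp15. Cp7Fb had the steadiest control level, the highest knockout value relative to the control and the longest transcript (2093 bases). A link between these was not tested.

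Between genes, levels were set per kb of the longest annotated transcript, as CPM per kb (RPKM). In the knockout, Cp18 led at 2.88 ± 0.307 RPKM, above Cp38 at 1.13 ± 0.985 RPKM by more than their SDs. Below Cp38 came Cp7Fb, Cp15, Cp36, Cp19, Cp7Fc, Cp7Fa and Cp16, down to 0.0801 ± 0.113 RPKM, and no neighbours in that order differed beyond their SDs. In the control, Cp15 led at 5202 ± 2380 RPKM, followed by Cp38 at 3323 ± 902, Cp19 at 3178 ± 933, Cp36 at 3051 ± 1373 and Cp18 at 2292 ± 468 RPKM, and neighbours among these 5 overlapped within their SDs. A step set them apart from Cp16 at 865 ± 359 and Cp7Fc at 732 ± 107 RPKM, which overlapped, and a further step from Cp7Fa at 256 ± 85.7 and Cp7Fb at 211 ± 13.7 RPKM, which overlapped as well.

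As a share of the summed chorion levels per length, Cp18 made up 39.6 ± 14.6% in the knockout, against 12.6 ± 2.83% in the control. Cp15 made up 9.45 ± 6.72% in the knockout, against 26.2 ± 4.53% in the control. Cp7Fb made up 17.8% and 9.17% in the knockout, against 0.944% to 1.67% in the control. Knockout and control libraries did not overlap for these 3 genes, nor for Cp16, Cp19 and Cp36, whose shares were lower in the knockout. They overlapped for Cp7Fa, with 3.27% and 1.00% in the knockout and 1.28% to 1.40% in the control, for Cp7Fc and for Cp38.

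**Figure D3:**
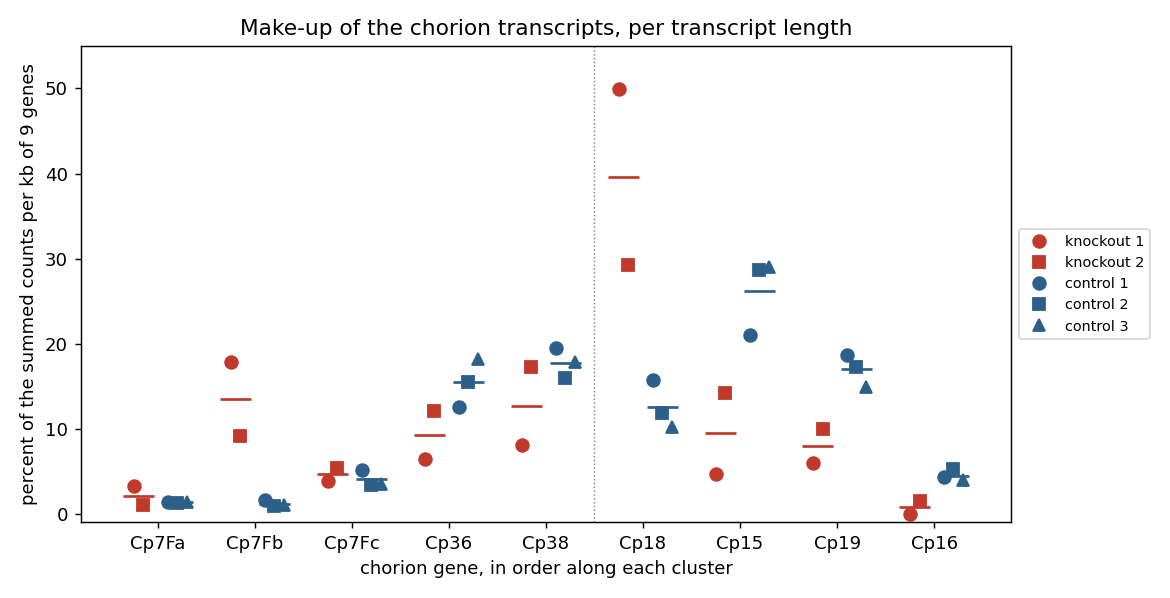
Percent of the summed counts per kb of the 9 chorion genes that each gene takes, in knockout libraries (red, left) and control libraries (blue, right), with bars at the group means. Cp18 takes 49.9% and 29.3% in the knockout libraries, against 10.2% to 15.7% in the control libraries, and Cp15 takes 4.69% and 14.2% in the knockout, against 21.0% to 29.0% in the control.

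Genes next to the clusters did not share the loss as a block. Within 20 kb of a chorion gene, 15 further genes were tested, of which 5 fell and 2 rose. Their median log2 fold change was 0.02. Over all tested genes, 18.7% fell and 22.7% rose. Within 10 kb, 12 genes were tested, with 5 lower, 2 higher and a median of -0.27. CG13306, org-1, CG32713 and CG33223 had control means of 0.0324, 0.263, 0.691 and 1.06 CPM, where a loss could hardly show. Without knockout 1 or knockout 2 only 3 and 4 of the 15 were called in either direction. CG33223, a gene on the minus strand that spans the whole X cluster with its introns and shares 0 exonic bases with the chorion genes, was at 0.981 and 1.26 CPM in the knockout, against 0.541, 2.25 and 0.385 CPM in the control (log2 fold change 0.19 ± 0.90 SE, edgeR adjusted p = 0.880). On its right the nearest gene, otu, a germline gene of oogenesis and sex determination, lies 1697 bases from Cp38. It was at 93.0 and 110 CPM in the knockout, against 871, 530 and 483 CPM in the control (-2.60 ± 0.33 SE, edgeR adjusted p = 0.00296), and missed the threshold without knockout 1 (adjusted p = 0.0502).

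To the left of the X cluster, CG12116 lies 1876 bases from Cp7Fa and was not called (0.07 ± 0.68 SE, edgeR adjusted p = 0.942). With depth class (3 deep and 2 shallow libraries) as a term, it was called higher (1.72, edgeR adjusted p = 0.0150). Es2 (-1.51), Sptr, which encodes sepiapterin reductase (-1.11), and, to the right, CG33181 (-0.76) fell by far less than the chorion genes. Each of these 3 lost its call without knockout 1 or knockout 2 (adjusted p = 0.0524 to 0.199), Sptr also without control 2 (adjusted p = 0.0581) and CG33181 without control 3 (adjusted p = 0.0722). CG15347, 9990 bases from Cp7Fa, rose to 178 and 189 CPM in the knockout, against 12.4, 5.92 and 6.55 CPM in the control.

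The 3L cluster is bounded on the right by Prm, the muscle gene for paramyosin, only 259 bases from Cp16 and on the other strand. Prm was at 255 and 238 CPM in the knockout, against 43.4, 25.9 and 32.0 CPM in the control (2.91 ± 0.27 SE, edgeR adjusted p = 0.00109), so it rose where Cp16 fell. On the left, CG6511 lies 683 bases from Cp18 and was not called (-0.31 ± 0.28 SE, edgeR adjusted p = 0.418), though it fell with depth class as a term (-0.68, edgeR adjusted p = 0.0280). The small gene CG43965, within CG6511 on the opposite strand and 1017 bases from Cp18, had a loss of the size seen for the chorion genes. It was at 0.0258 and 0.0628 CPM in the knockout, against 26.5, 55.2 and 80.2 CPM in the control (-10.03 ± 0.81 SE, edgeR adjusted p = 0.000792). Its knockout values stand for 1 and 3 counts, so the size of its fold change is uncertain. With a prior count of 2 in the fit it was -8.85. The libraries were made with a directional kit, but the strand setting of the counting is not given in the sources used here, so reads of CG43965 and CG6511 may not be fully separated.

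**Figure D4:**
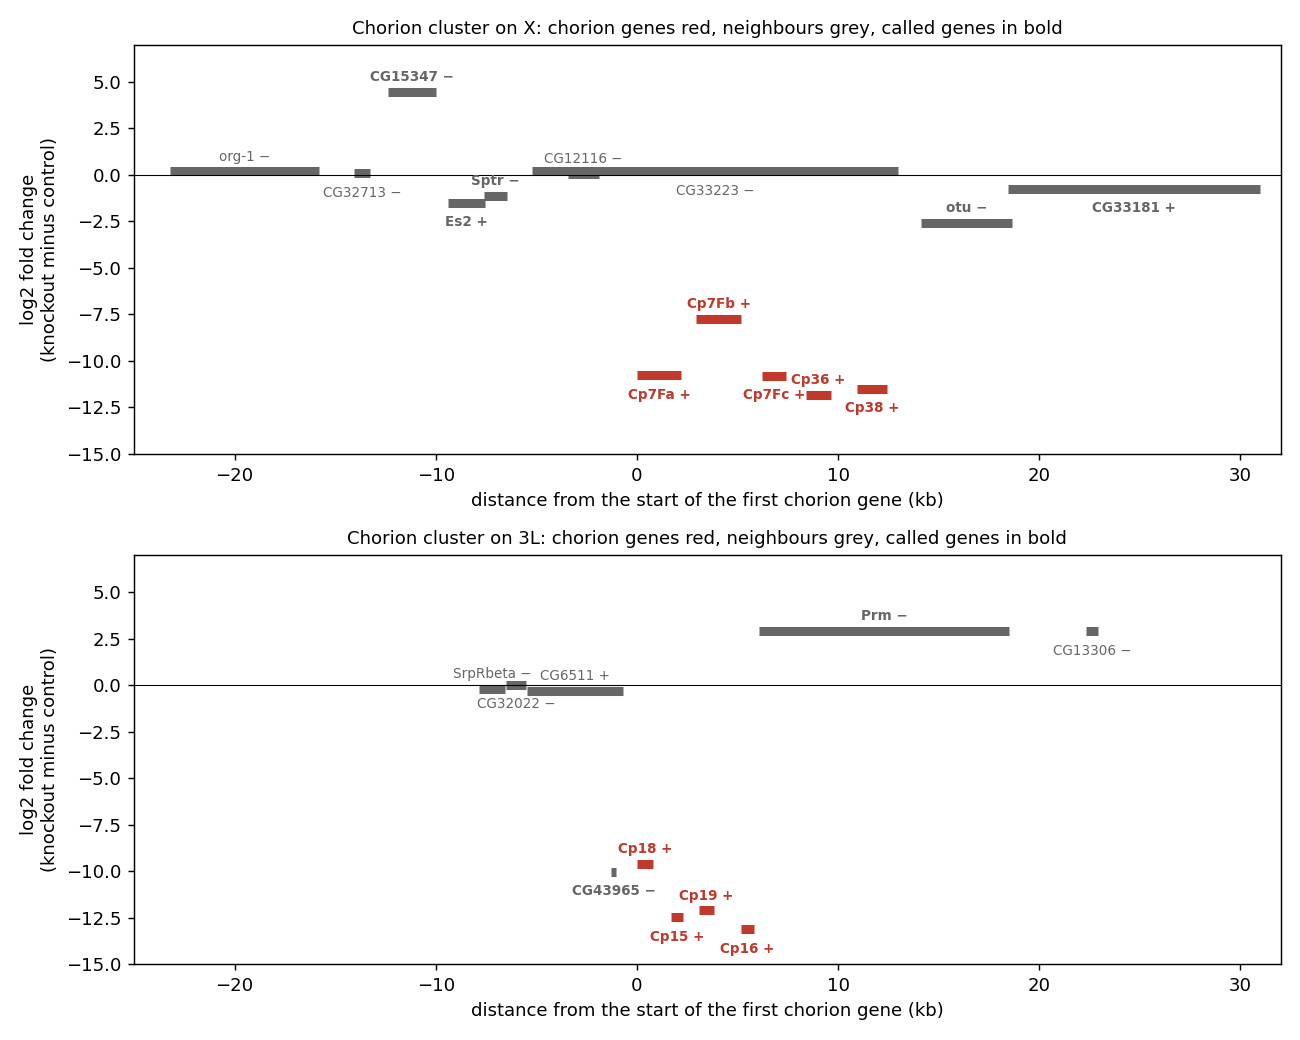
Log2 fold change (knockout minus control) of chorion genes (red) and the genes within 20 kb (grey) against distance from the first chorion gene of each cluster in kb, with bars as long as the genes, the strand after each name and called genes in bold. The chorion genes lie between -7.74 and -13.11, and of the neighbours CG43965 alone lies in that range, on 1 and 3 knockout counts.

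Among all other tested genes with a control mean of at least 10 CPM (6360 genes), likeness to the chorion genes was measured as the Euclidean distance of log2(CPM + 0.5) over the 5 libraries from the median profile of the 9 genes. The nearest were CG14309 (distance 1.65), CG15570 (2.24), CG13083 (2.25), CG13114 (2.50) and CG13084 (3.13), while the 9 genes themselves lay at 0.82 for Cp19 to 4.21 for Cp7Fa. CG14309 was at 0.155 and 0.648 CPM in the knockout, against 850, 786 and 734 CPM in the control. CG13083 was at 0.0773 and 0.167 CPM in the knockout, against 440, 829 and 807 CPM in the control. CG14309 was highest in control 1, unlike the chorion genes.

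Other eggshell genes fell with the chorion genes but by unequal amounts. Of 9 tested genes listed for the late eggshell, 8 fell and 1 rose, with a median log2 fold change of -7.76. Among them yellow-g, a gene of the yellow family needed for a rigid eggshell, was at 0.335 and 0.544 CPM in the knockout, against 264, 387 and 383 CPM in the control (-9.55 ± 0.39 SE, edgeR adjusted p = 0.000240). Its neighbour in the family, yellow-g2 (-11.40), the peroxidase gene CG4009 (-10.15) and Fcp3C (-7.76) fell too. Irc, an immune-regulated catalase, was the one that rose (2.78, adjusted p = 0.000665 by edgeR). Irc has a general role against hydrogen peroxide and is not particular to the eggshell.

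Genes of the vitelline membrane, the layer made just before the chorion, fell in 10 of 12 cases, with none called higher and a median of -3.62. Without knockout 1 or knockout 2 the number was 7 each, and without control 1 it was 11, with 1 higher. The structural genes Vm32E (-11.03, SE 0.69), Vm34Ca (-7.95, SE 0.42) and Vm26Aa (-5.59, SE 0.22) and the assembly gene dec-1 (-4.91, SE 0.26) fell. Vm32E, at 0.0515 and 0.335 CPM in the knockout, against 460, 434 and 411 CPM in the control, had a fold change within the range of those of the chorion genes. The vitelline membrane component fs(1)M3 (-1.06, adjusted p = 0.0527 by edgeR) and the protease ndl (0.11, adjusted p = 0.901 by edgeR) were not called. The controls disagreed for ndl, which was at 261 and 217 CPM in the knockout, against 435, 144 and 102 CPM in the control. Of the 3 yolk protein genes, which follicle cells transcribe earlier, Yp3 fell (-1.42, adjusted p = 0.0105 by edgeR). Yp3 lost that call without either knockout library, while Yp1 (-0.75, edgeR adjusted p = 0.122) was not called, nor was Yp2 (-0.54, edgeR adjusted p = 0.212).

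Gene amplification in follicle cells uses the general replication machinery. Of 42 genes for it, 19 fell and none rose, with a median of -0.61, beside 18.7% lower and 22.7% higher over all tested genes. The count of lower genes was 6 without knockout 1 and 6 without knockout 2, and 2 genes were higher without control 1. All 6 subunits of the origin recognition complex, which marks the origins, fell, led by Orc1 (35.3 and 36.3 CPM in the knockout, against 149, 145 and 150 CPM in the control, 4.13-fold lower by means) and Orc3 (-1.89, SE 0.16). So did hd, the humpty dumpty gene needed for chorion gene amplification (-1.96, SE 0.19), and CycE, the cyclin that drives entry into S phase (-1.60, SE 0.16). Of the 6 subunits of the MCM helicase 1 fell, and of 6 genes of the Myb complex, a regulator of the amplifying origins, none was called. The E2F partner Dp (0.11, adjusted p = 0.609 by edgeR) and chif, the activator of the Cdc7 kinase (0.17, adjusted p = 0.854 by edgeR), were not called. The controls disagreed for chif, which was at 206 and 205 CPM in the knockout, against 366, 119 and 74.4 CPM in the control. Genes of this list serve replication in germline and soma alike.

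Regulators of follicle cells, the ecdysone pathway among them, moved both ways. Of 17 tested genes, 8 rose and 4 fell, with a median of 1.23, beside 22.7% higher and 18.7% lower over all tested genes. Without knockout 1 there were 3 higher and 1 lower, without knockout 2 there were 4 and 1, and 5 were higher without control 2 or control 3. The nuclear receptor usp and the zinc-finger gene Cf2, both known as factors that bind chorion gene promoters, fell. The receptor usp was at 46.4 and 46.3 CPM in the knockout, against 127, 138 and 129 CPM in the control (-1.46 ± 0.15 SE, edgeR adjusted p = 0.00159), and Cf2 changed by -1.14 (adjusted p = 0.00401 by edgeR). The zinc-finger regulator peb (3.10), the ecdysone target Sox14 (3.66) and the ecdysone receptor coactivator tai (6.39-fold higher by means) rose. The growth regulator bun (0.17, adjusted p = 0.466 by edgeR) and ttk, a repressor that acts in late follicle cells (0.04, adjusted p = 0.937 by edgeR), were not called. The controls disagreed for ttk, which was at 191 and 206 CPM in the knockout, against 304, 159 and 128 CPM in the control.

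Of 16 general markers of follicle cells 12 rose and none fell, with a median of 1.88, and their summed level was 4180 and 4101 CPM in the knockout, against 2121, 1503 and 1367 CPM in the control. The count of higher genes was 5 without knockout 1 and 6 without knockout 2. The adhesion gene Fas3 was at 298 and 309 CPM in the knockout, against 48.8, 32.3 and 34.4 CPM in the control (3.01, SE 0.24), and eya, a regulator of follicle cell fate, changed by 3.43 (SE 0.22). Several of the 16, such as mys, arm, shg, dlg1, baz and Egfr, are also expressed in other tissues, and the cells behind their higher levels were not tested. The beta-catenin gene arm (0.28, adjusted p = 0.173 by edgeR) and the spectrin gene kst (2.12, adjusted p = 0.132 by edgeR) were not called. The controls were far apart for kst, which was at 519 and 475 CPM in the knockout, against 277, 42.8 and 28.2 CPM in the control. Of 8 genes of mature follicles and ovulation 4 rose, among them Mmp2 (3.19, SE 0.27), Cyp18a1 (3.60, SE 0.27) and sim (1.48, SE 0.16). Another 2 fell, Hr39 (-1.25, SE 0.16) and Oamb (-0.87, SE 0.24). Among all tested genes 22.7% rose and 18.7% fell. The cells behind the changes of these 8 genes were not tested either. No gene of this list had a loss near that of the chorion genes, and its 2 lower calls were 0 without knockout 1, 1 without knockout 2 and 1 without control 3.

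Markers of other cell types in the dissected tissue moved with the genotype. The counts below stand beside 22.7% higher and 18.7% lower over all tested genes. Muscle genes rose in 11 of 14 tested cases, and the 15 listed genes summed to 6277 and 6124 CPM in the knockout, against 1449, 1003 and 1027 CPM in the control. Hemocyte and matrix genes rose in 4 of 6 tested cases, with sums of 6558 and 5243 CPM in the knockout, against 775, 585 and 563 CPM in the control. Most of that was the collagen genes Col4a1 and vkg, which other tissues also express, while the hemocyte gene Hml was at 7.68 and 7.17 CPM in the knockout, against 1.87, 0.947 and 0.578 CPM in the control. Fat body genes rose in 3 of 6 tested cases (0 without knockout 1), with sums of 189 and 116 CPM in the knockout, against 34.9 to 55.5 CPM in the control. The oviduct and spermatheca genes tested were Send1 and abd-A, and both rose, with sums over 4 listed genes of 59.9 and 51.8 CPM in the knockout, against 6.08, 1.30 and 1.06 CPM in the control. Send1 was at 0 in all controls, and neither call held without knockout 1, while 1 of the 2 held without knockout 2. Germline genes were split, with 4 of 12 higher and 4 lower, but by unequal amounts. The genes that fell were exu (-3.54), nos (-3.43), bam (-2.26) and vas (-0.74). Those that rose were piwi (1.40), grk (1.39), spn-E (1.22) and vls (0.79). The list summed to 2546 and 2870 CPM in the knockout, against 4368, 3170 and 2864 CPM in the control. The 4 higher germline calls were 0 without knockout 1, 0 without knockout 2 and 1 without control 2. The part of these tissue shares in the loss of chorion transcripts was not tested.

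**Figure D5:**
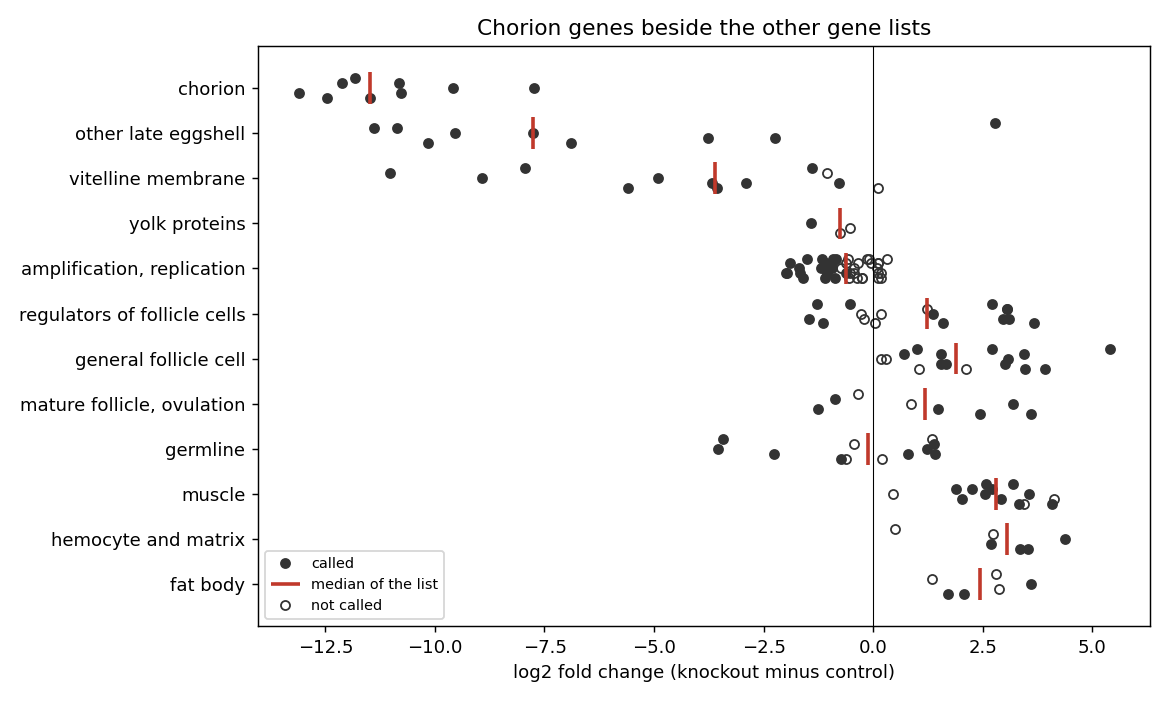
Log2 fold change (knockout minus control) of each tested gene in the chorion list and the lists set beside it, filled where called and open where not, with red bars at list medians. The chorion list has the lowest median, -11.49, and the other late eggshell (-7.76) and vitelline membrane (-3.62) lists follow.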

How the data were processed

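Total RNA from dissected ovaries was made into directional libraries, per the labels' protocols. The deposited values are estimated counts by gene, 1 column per library, neither scaled nor pooled by the authors as far as the values show. The submitters' processing notes name FastQC 0.11.8, Trim Galore 0.6.6, STAR 2.7.5b, Salmon 1.2.1 and the dm6 build. The order, settings and annotation are not given in the sources used here. Columns were matched by sample descriptions and groups taken from titles. The series design speaks of duplicates, but all 3 labelled controls were used.

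CPM were computed from column totals, in which genes with rRNA in their symbol took 11.7% to 17.3%. For the test, estimated counts were rounded, filtered with edgeR's filterByExpr and scaled by TMM (0.941 to 1.03). They were fitted with edgeR 4.0.16 (robust glmQLFit, glmQLFTest) in R 4.3.3 over all 9241 genes, with no covariate. The SE was taken as |log2 fold change| / sqrt(F). Alternatives included DESeq2 1.42.0 and limma 3.58.1 (voom), other scalings and filters, thinning, depth class, replicate block and leaving out libraries. Methods were also run on simulated counts, and the outcome is not reported here. Positions and lengths are from Ensembl 115 (BDGP6.54, dm6 coordinates), where 14048 of 14094 identifiers (99.7%) were found.

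The floor of 3 counts is 0.0628 to 0.355 CPM. No libraries were duplicates, with chi-square per degree of freedom at 142 between the knockouts and 12.5 between controls 2 and 3. Control 1 stood further from controls 2 and 3, at 245 and 319, than these did from each other. It was also the deep control. From the lists, Msp300 (97.4, 6.15 and 4.33 CPM in controls 1, 2 and 3), sls (58.7, 4.50 and 2.02 CPM) and tud (483, 75.3 and 38.3 CPM) were highest in control 1. Every chorion gene was lowest there, and Mlc2 was at 66.0, 65.3 and 80.3 CPM. Control levels, and ranks and shares drawn from them, thus differ by control library. The source of this difference, and any link to transcript length, was not tested. With 2 against 3 libraries there are 10 groupings, so an exact permutation test of single shares was not made. Members and gene lists were chosen with earlier results of these data known. Named genes were the 9 members, BEAF-32, the nearest neighbours of each cluster and those that fell, and the 5 nearest profiles. From each list up to 4 called genes by p and 2 uncalled genes by CPM were set for naming, but not all of these are printed. Others were named after their values were seen. Promoter and protein sequences were not used here.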

Additional observations from a re-analysis of the deposited data

How the results depend on the processing

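All 9 chorion genes stayed called lower under all 15 alternatives that were fitted (135 of 135 values), with log2 fold changes from -16.39 to -7.38. Their median, -11.49, was -10.79 with depth class as a term and -12.78 to -11.23 with 1 library left out. The alternative with a prior count of 2 alters the fold changes but not the test, so its calls could not differ. BEAF-32, at -1.19, was -0.70 with depth class as a term, ran from -1.40 to -1.10 with 1 library left out, and was not called without knockout 1 or knockout 2. The number of genes called, 3831, ran from 878 to 6083 with 1 library left out (878 without knockout 1, 1031 without knockout 2 and 6083 without control 1). Called neighbours, 7, ran from 3 to 7 with 1 library left out and were 12 with a window of 50 kb. Where a knockout library is left out, the other is assumed to vary like the controls. Cp15 took 26.2% of the control chorion transcripts per length, and 16.3% when counts were not divided by length. Among the other gene lists, yolk protein genes had 3 lower with depth class as a term and 2 with the replicate block, mature follicle genes 1 lower with that block, and fat body genes 5 higher with DESeq2. The cause of these shifts was not tested. Replicate numbers are shared by the groups, but the labels do not say that they pair libraries. Deviations from the group means correlated at 0.116 (number 1) and 0.0894 (number 2) across genes. Knockout 2 with control 3, which differ in number, gave 0.0779. With 2 knockout libraries their deviations mirror each other, so these values cannot decide on pairing. With the replicate block 3261 genes were called, all 9 chorion genes among them, and BEAF-32 was at -1.02. Depth limits the knockout values: Cp16 rests on 4 counts. Promoter motifs, although planned, were not run.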

Other observations

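Loss of an abundant transcript was not limited to the chorion genes. Of 1991 genes with a control mean of at least 100 CPM, 34 had a knockout mean under 3 CPM. They comprised the 9 chorion genes and 25 others. Both thresholds and the genes named here were chosen after the values were seen. Among the 25 were the eggshell genes Femcoat, Fcp3C, Muc4B, Vm26Ac and Vm32E, but also the mitochondrial gene mt:ND4 and w, the eye pigment transporter gene whose alleles commonly differ between laboratory stocks.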
